A study of Mus musculus with 12 samples.

Results

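Antibody Fc receptors are proteins that hold the constant (Fc) end of immunoglobulins, and 7 mouse genes of this kind were read from 12 expression arrays: Fcer1g, Fcgr1, Fcgr3, Fcgr4, Fcgr2b, Fcgrt and Trim21. Every probe set that the platform annotation pairs with 1 of these symbols and no other was taken, which gave 13 of the 45101 probe sets in the table. Where a gene had several, the probe set with the highest mean over the 12 arrays stood for it and is called its lead probe set, so that the 7 genes are 7 of 18194.

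The cells were A2C12, a single tumour line grown from the lung of a mouse that carries both a c-myc and a c-raf transgene on the C57BL/6 background, so all 4 groups share both oncogenes. Sorted fractions were compared: the side population (SP), cells that pump out the DNA dye Hoechst, and the other cells (non-SP). Cells had received a monoclonal antibody to mouse EpCAM, a surface adhesion protein of epithelia, at 100 µg/ml for 48 h, or no treatment. None of the 4 groups received a control antibody, and the isotype of the antibody is not given in the sources used here. Staining used Hoechst at 5 µg/ml for 90 min, with and without the pump inhibitor reserpine at 50 µmol/l, and 200 ng of total RNA went into labelling. Each fraction was sorted from untreated and from antibody-treated cells, which makes 4 groups of 3 arrays that the labels call biological replicates. In bulk RNA of this kind, fewer cells expressing a gene and less RNA per cell cannot be told apart.

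Fc receptors let cells sense or carry antibody. The activating receptors Fcgr1, Fcgr3 and Fcgr4 depend on the common gamma chain, Fcer1g, whose ITAM motif recruits the kinase Syk once IgG complexes cluster them, and they are known above all from macrophages, neutrophils and NK cells. Fcgr2b carries an inhibitory ITIM motif that recruits the phosphatase Inpp5d and dampens such signals in B cells and myeloid cells. Fcgrt is the heavy chain of FcRn, which pairs with B2m and recycles IgG and albumin in epithelium and endothelium. Trim21 is a cytosolic ubiquitin ligase that binds antibody carried into the cell on a pathogen.

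The genes lie in 3 places. On chromosome 1 of the mouse assembly GRCm38.p6, Fcgr2b, Fcgr4 and Fcgr3 are consecutive protein-coding genes, Fcer1g lies on the same chromosome, Fcgr1 is on chromosome 3, and Fcgrt and Trim21 are on chromosome 7. Start regions from RefSeq on that assembly are shown for the genes known from blood cells and for Trim21, to let the reader see which hold a match to GAGGAA, the core bound by the myeloid factor PU.1, and to the element of interferon regulatory factors, read as GAAA, any 2 bases and GAAA again. Both strands were searched over 250 bases before to 50 after each start, and capitals mark the matches. Each line gives the 100 bases before the start, 5′ to 3′ on the gene's strand.
Fcer1g, chr1:171234350-171234449, minus strand: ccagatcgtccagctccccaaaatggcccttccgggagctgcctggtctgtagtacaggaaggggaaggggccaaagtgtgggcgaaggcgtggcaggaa
Fcgr1, chr3:96293970-96294069, minus strand: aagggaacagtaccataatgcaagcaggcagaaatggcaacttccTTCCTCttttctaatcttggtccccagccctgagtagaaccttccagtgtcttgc
Fcgr3, chr1:171059404-171059503, minus strand: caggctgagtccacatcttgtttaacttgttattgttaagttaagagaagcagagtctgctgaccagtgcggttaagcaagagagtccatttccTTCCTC
Fcgr4, chr1:171018826-171018925, plus strand: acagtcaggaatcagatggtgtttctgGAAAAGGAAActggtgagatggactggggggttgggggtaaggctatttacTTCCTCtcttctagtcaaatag
Fcgr2b, chr1:170976072-170976171, minus strand: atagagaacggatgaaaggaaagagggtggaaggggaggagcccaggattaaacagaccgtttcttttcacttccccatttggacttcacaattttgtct

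For Trim21 the matches fall just after the start, in this stretch of 30 bases on the minus strand, in which matches to both motifs overlap.
Trim21, chr7:102565448-102565477: tctgaGAGGAAACTGAAAGTGAAAtttgga

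GAGGAA was found for Fcgr1, Fcgr3, Fcgr4 and Trim21, 4 of the 7 genes, and in 28.3% of the 32851 windows of all genes. Over windows of the 7 genes it was 5 of 8, since Fcgr3 has 2 listed starts, and their overlapping windows hold the same match. The spaced GAAA pair was found for Fcgr4 and Trim21, in 2 of the 8 windows, against 3.44% of all windows. A match is a description of the letters in the window, and binding was not measured.

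Over all arrays, values ran from 2.28 to 14.7 log2 units and array medians from 5.72 to 6.06. Of 11 measured markers of epithelium and alveolar type II cells, 6 had a mean above that of every olfactory receptor gene, a family not known to be used in such cells. Krt19, an epithelial keratin, stood at 11.71 and Epcam at 8.11. Of the type II markers, Sftpb stood above the olfactory range at 7.44, while Sftpc (5.64), Nkx2-1 (5.55) and Sftpd (5.15) stood within it. In both arrays of anti-EpCAM replicate 2, the 3′ probe set of actin exceeded the 5′ one by 0.895 and 1.03, against at most 0.733 elsewhere, a sign of RNA less intact toward the 5′ end. The SP and the non-SP array of 1 replicate number and treatment deviated together from their group means in all 6 cases. Such a pair is treated as 1 culture, a term that the labels do not use.

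Among the 7 genes, Fcgrt had the highest lead probe set, with a mean of 10.30 log2 units, above 87.2% of all genes. Fcgr2b followed with 8.38, above 64.7%. Trim21 (6.39), Fcer1g (6.06), Fcgr4 (5.96), Fcgr1 (5.96) and Fcgr3 (4.76) lay below the median gene at 7.02. Levels of different probe sets are not strictly comparable, because probes bind with different strength. The 39 olfactory receptor genes, whose means ran from 3.41 to 6.17 with a median of 4.48, give a scale for signal without known expression. On that scale 3 of the 7 genes, Fcgrt, Fcgr2b and Trim21, stood above the whole olfactory range, while the gamma chain and all 3 activating receptors stood inside it. The top of that range lies between Fcer1g, above 39.3% of all genes, and Trim21, above 43.4%. Most genes on the arrays thus stand above it, and counts above that range, here and elsewhere, are to be read against this.

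The 3 genes with more than 1 probe set did not give 1 level each. Fcgr2b had 5 probe sets with means of 8.38, 5.74, 4.78, 3.68 and 2.98, and only the lead was above the olfactory range. 3 of these 5, at 8.38, 5.74 and 3.68, were designed on the same deposited transcript sequence. The probe sets at 5.74 and 3.68 have x_at and s_at names, which mark probes that can take up related transcripts, and Fcgr2b and Fcgr3 are alike in their extracellular part. The other probe set of Fcgr1 had a mean of 3.95 and that of Trim21 a mean of 4.89, both within the olfactory range. The statement that Fcgr2b or Trim21 is above that range therefore rests on 1 probe set each.

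**Figure D1:**
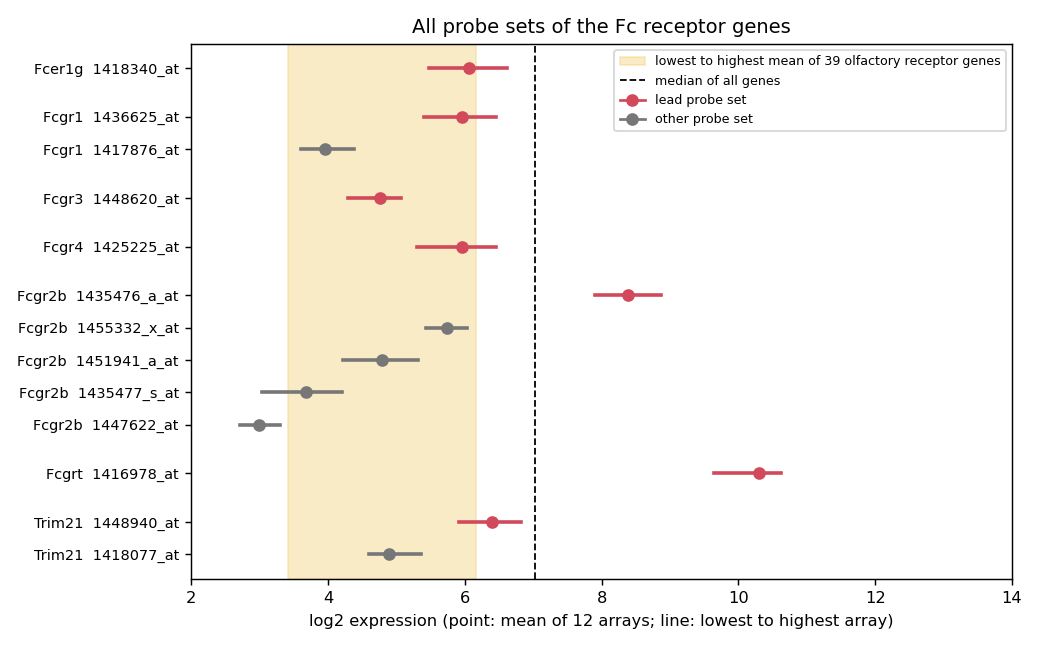
Level of each of the 13 probe sets of the 7 genes in log2 units, as the mean over 12 arrays (point) and the span from the lowest to the highest array (line), with the range of olfactory receptor means shaded from 3.41 to 6.17 and the median gene dashed at 7.02. Only the lead probe sets of Fcgrt, Fcgr2b and Trim21 have means to the right of the shaded range.

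Fcer1g, the shared signalling chain, was the gene with the largest antibody difference of the 7. In non-SP cells it stood at 6.23, 6.13 and 6.38 without and at 6.09, 5.90 and 5.87 with anti-EpCAM. In SP cells it stood at 6.62, 6.21 and 6.24 without and at 5.54, 5.47 and 6.06 with the antibody. In both fractions every treated array was below every untreated array. From high to low, the group means were 6.35 ± 0.23 (SD, n = 3) in untreated SP, 6.25 ± 0.13 in untreated non-SP, 5.95 ± 0.12 in treated non-SP and 5.69 ± 0.32 in treated SP cells. The first pair in that order overlapped in its arrays, as did the last, and the middle pair did not.

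In SP cells the antibody difference of Fcer1g was -0.66 ± 0.19 (SE) on the log2 scale, with a 95% interval from -1.07 to -0.26. Its limma p was 0.00368 before and 0.989 after Benjamini-Hochberg adjustment over all genes. That fit counts both arrays of a culture as independent. With a random block for cultures the SE in SP cells was 0.24 and the unadjusted limma p was 0.0161. With only the 2 SP groups fitted, the SE was 0.22 and the unadjusted limma p was 0.0131. In non-SP cells the difference was -0.29 ± 0.19, with an interval from -0.70 to 0.11. The test of whether the fractions differ in it, the interaction, gave -0.37 ± 0.26 with an unadjusted limma p of 0.185. Averaged over both arrays of a culture, Fcer1g was 6.42, 6.17 and 6.31 in untreated and 5.82, 5.69 and 5.97 in treated cultures, so all 3 treated cultures were lower. That difference was -0.48 ± 0.16, with an interval from -0.85 to -0.11, a limma p of 0.0162 and an adjusted p of 0.991. An exact two-sided permutation test over the 6 cultures gave p = 0.1, the smallest that 3 against 3 allows. That all 3 treated cultures were lower fixes this value, so the test adds nothing further.

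These values stand against a general shift. The median gene was lower with antibody by 0.10 in non-SP cells, 0.12 in SP cells and 0.11 on average, and relative to it Fcer1g differed by -0.19, -0.54 and -0.36. With each array centred on its median, the Fcer1g difference was -0.15 in non-SP cells, -0.47 in SP cells and -0.31 on average. Without both arrays of anti-EpCAM culture 2 it was -0.26 and -0.55 in the non-SP and SP fractions. All of these have the direction of the values above, and none passed the adjusted threshold.

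The 3 activating receptors, which bind IgG and need Fcer1g at the surface, showed no common course. For Fcgr4, a receptor for IgG2a and IgG2b complexes, the untreated arrays were 6.28, 5.89 and 5.98 in non-SP and 6.45, 6.10 and 5.93 in SP cells. Its treated arrays were 5.64, 6.13 and 5.90 in non-SP and 5.30, 6.04 and 5.90 in SP cells. The lowest value in each treated group came from replicate 1, and treated and untreated arrays overlapped in both fractions. The antibody difference of Fcgr4 was -0.16 ± 0.22 in non-SP and -0.41 ± 0.22 in SP cells, with intervals from -0.64 to 0.33 and from -0.90 to 0.07. The SP value moved with the arrays used and with scaling. It was -0.19 without SP anti-EpCAM replicate 1 (unadjusted limma p 0.404), -0.22 with arrays centred on their medians (0.321) and -0.56 without both arrays of treated culture 2 (0.0354, adjusted 0.731). Without that culture the non-SP difference was -0.28.

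Fcgr1, the high-affinity IgG receptor, was 6.22, 5.59 and 6.07 in untreated non-SP and 6.31, 5.40 and 5.94 in untreated SP cells. With antibody it was 6.01, 6.45 and 5.97 in non-SP and 5.70, 5.85 and 5.95 in SP cells. Every treated SP array was below every treated non-SP array, by 0.31 ± 0.24 on average, but the closest 2 arrays were 5.95 and 5.97. Within the 3 treated cultures SP differed from non-SP by -0.30, -0.61 and -0.02, and without culture 2 the difference was -0.16. With cultures as a block its SE was 0.12, with a limma p of 0.0356 before and 0.628 after adjustment. For Fcgr1 the antibody difference was 0.18 ± 0.24 in non-SP cells and 0.03 there without treated culture 2. In SP cells it was -0.05 ± 0.24, and it took the other sign, 0.14, when arrays were centred on their medians or quantile normalized. Fcgr1 did not pass the adjusted threshold in any contrast. Its other probe set, with a mean of 3.95, differed by 0.03 between treated fractions, and by -0.29, 0.21 and 0.16 within the 3 treated cultures.

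Fcgr3, the low-affinity activating receptor, was 4.71, 4.47 and 4.78 in untreated non-SP and 5.07, 4.29 and 4.94 in untreated SP cells. With antibody it was 4.67, 4.88 and 4.84 in non-SP and 4.50, 4.98 and 5.04 in SP cells. All 4 groups overlapped, with means from 4.65 to 4.84, and the antibody difference was 0.14 in non-SP and 0.07 in SP cells, with intervals from -0.32 to 0.61 and from -0.39 to 0.54. Without treated culture 2 these differences of Fcgr3 were 0.10 and 0.00, and with arrays centred on their medians 0.28 and 0.27.

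Untreated culture 2 gave the lowest value of its group in both fractions for Fcer1g, Fcgr1, Fcgr3, Fcgr2b and Trim21. Fcgr4 and Fcgrt did not share this. How many of all genes do so was not counted, so it cannot be read as particular to these. Trim21 was 6.52, 6.08 and 6.79 in untreated non-SP and 6.33, 5.92 and 6.82 in untreated SP cells. The medians of the 2 arrays of that culture, 5.81 and 5.80, were also the lowest of the 6 untreated arrays, and the part of this in the result was not tested. Over all genes the deviations of these 2 arrays from their group means correlated at 0.84.

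**Figure D2:**
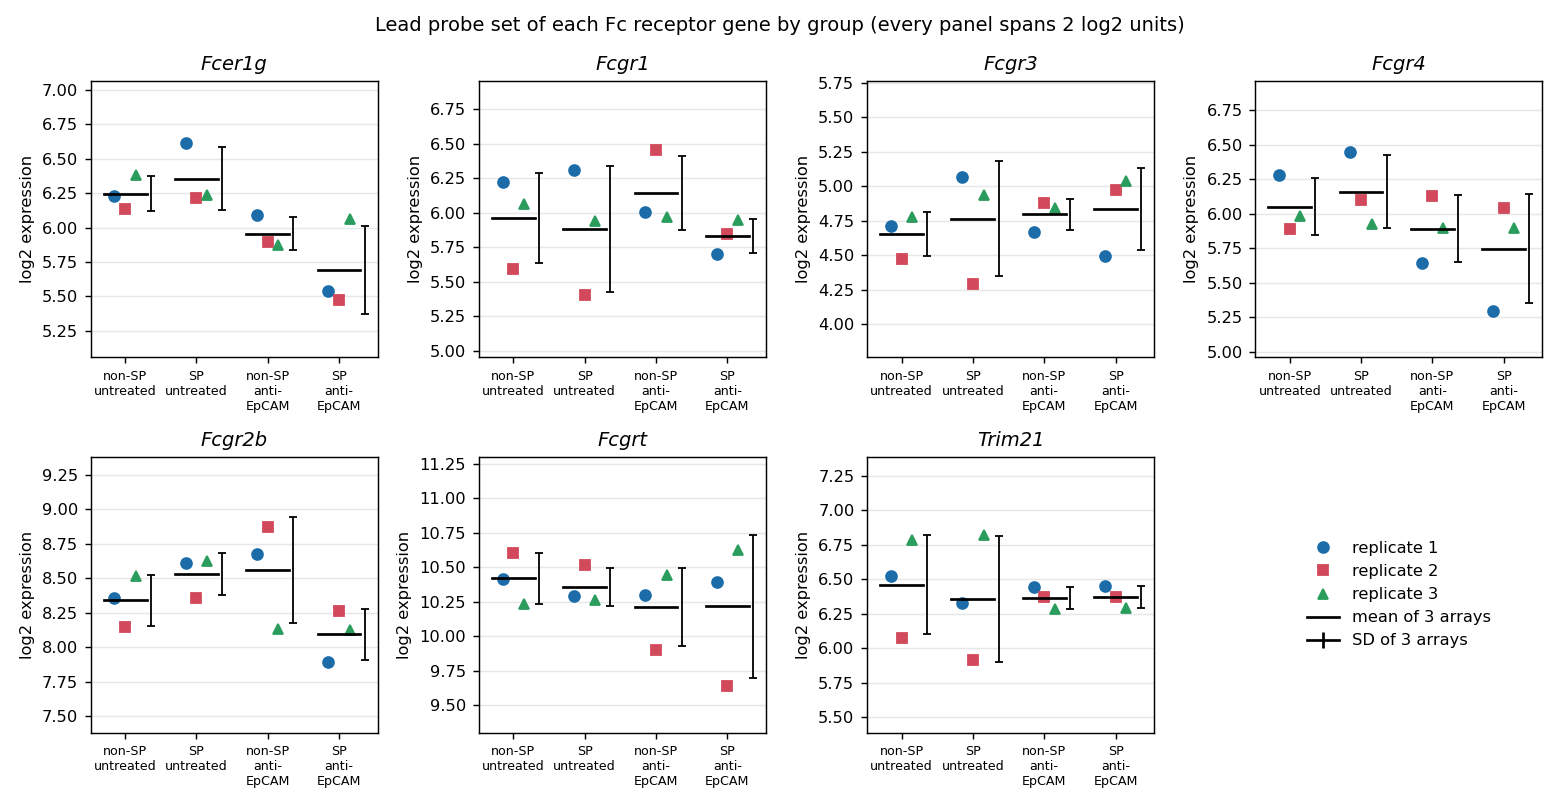
Lead probe set of each of the 7 genes in log2 units by group, 1 symbol per array (circle, square and triangle for replicates 1, 2 and 3), with the mean (horizontal line) and SD (bar) of 3 arrays, each panel spanning 2 log2 units. Fcer1g has all 6 treated arrays below its untreated arrays of the same fraction, and the other panels overlap in at least 1 of the fractions.

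Fcgr2b, the inhibitory receptor, was the one gene of the 7 whose fraction difference turned with treatment in every culture. Its lead probe set was 8.36, 8.15 and 8.51 in untreated non-SP and 8.61, 8.36 and 8.62 in untreated SP cells. With antibody it was 8.68, 8.87 and 8.13 in non-SP and 7.89, 8.26 and 8.12 in SP cells. SP exceeded non-SP by 0.25, 0.21 and 0.11 in the 3 untreated cultures and differed by -0.78, -0.61 and -0.01 in the 3 treated ones. The last of these was close to 0, and arrays of the 2 fractions overlapped in both treatments.

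The interaction of antibody and fraction for Fcgr2b was -0.66 ± 0.28 (SE), with a 95% interval from -1.27 to -0.04 and a limma p of 0.0383 before and 1.00 after adjustment. An exact two-sided permutation test of the culture differences gave p = 0.1, the smallest possible. The opposite directions for which Fcgr2b was picked out fix this value, so it adds nothing to them. The components were a fraction difference of 0.19 ± 0.20 in untreated and of -0.47 ± 0.20 in treated cells, and an antibody difference of 0.22 ± 0.20 in non-SP and of -0.44 ± 0.20 in SP cells. In SP cells all treated arrays were below all untreated ones. With arrays centred on their medians the antibody differences of Fcgr2b were 0.36 in non-SP and -0.24 in SP cells, the latter with an unadjusted limma p of 0.200 in place of 0.0495, and with a random block for cultures that p was 0.0820. Without both arrays of treated culture 2 they were 0.06 and -0.52. With cultures as a block the interaction had an unadjusted limma p of 0.0109 and an adjusted p of 0.767. That block cannot change the estimate, because every culture holds both fractions, and changes only its SE. Without both arrays of treated culture 2 the interaction was -0.59, with an unadjusted limma p of 0.0654.

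In all 3 untreated cultures SP above non-SP and in all 3 treated cultures SP below it was the pattern of 330 genes, or 1.81% of those tested, and 1 of the 7. The other 4 probe sets of Fcgr2b gave interactions of -0.10, -0.05, -0.01 and 0.07. The difference was thus seen with the lead probe set and not with the other 4, whose means lie within or below the olfactory range. The probe set at 4.78 instead was lower with antibody by 0.46 in non-SP and 0.47 in SP cells, with overlap of arrays in both fractions and a limma p of 0.0508 before and 0.992 after adjustment for the average over fractions.

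The lead probe set of Fcgr2b had its nearest courses over the 12 median-centred arrays in Lce1i, a cornified envelope gene (Pearson r = 0.951), the olfactory receptor Olfr480 (0.938), the lymphocyte receptor Cd160 (0.921) and the neuronal nitric oxide synthase Nos1 (0.919). Olfr480 had a mean of 4.29. These are descriptions over arrays that share cultures and labelling, and the best of 18194 genes reach high values.

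**Figure D3:**
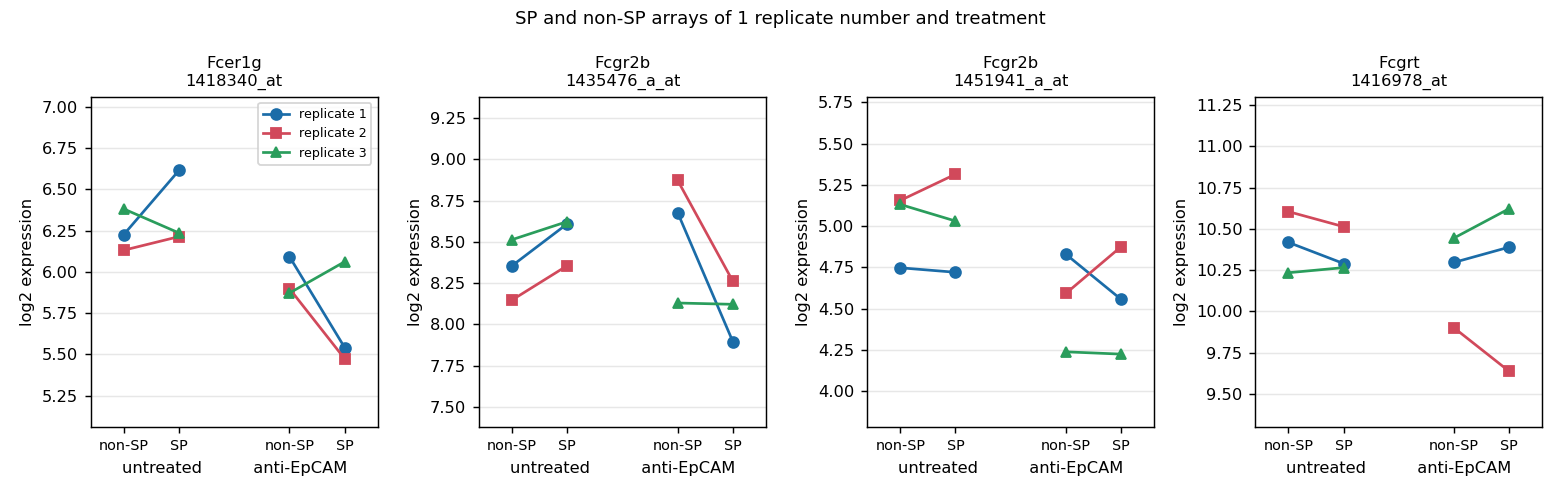
Non-SP and SP arrays of each replicate number joined by a line, without and with anti-EpCAM, in log2 units for Fcer1g, 2 probe sets of Fcgr2b and Fcgrt. The lead probe set of Fcgr2b slopes up in the untreated cultures and down in the treated ones, by -0.01 in replicate 3, and the probe set of the same gene with a mean of 4.78 does not share this.

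Fcgrt, the IgG and albumin carrier, had the highest lead probe set of the 7 genes, and its groups overlapped in every contrast. Its untreated arrays were 10.42, 10.60 and 10.23 in non-SP and 10.29, 10.51 and 10.27 in SP cells. Its treated arrays were 10.30, 9.90 and 10.44 in non-SP and 10.39, 9.64 and 10.62 in SP cells. The 2 lowest values were those of anti-EpCAM replicate 2, the culture with the larger 3′ excess of actin, and the part of RNA quality in this was not tested. The antibody difference was -0.21 ± 0.24 in non-SP and -0.14 ± 0.24 in SP cells, with intervals from -0.72 to 0.31 and from -0.66 to 0.38. Without that culture it was -0.05 in non-SP cells. In SP cells it then took the other sign, 0.15, as it did with arrays centred on their medians, 0.06. Between fractions Fcgrt differed by -0.06 in untreated and 0.00 in treated cells. The courses nearest to it were those of Nt5dc2 (r = 0.989), the glycolytic enzyme Gapdh (0.983), Arhgap1 (0.981) and the polymerase subunit Pold4 (0.981), again over 12 arrays that share cultures.

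Trim21, the cytosolic antibody receptor, had treated arrays of 6.44, 6.37 and 6.28 in non-SP and 6.45, 6.37 and 6.30 in SP cells, all within the span of the untreated arrays. The group means were 6.46 ± 0.36 and 6.36 ± 0.45 without and 6.36 ± 0.08 and 6.37 ± 0.08 with antibody, so the treated arrays lay closer together, a difference in spread that was not tested. The antibody difference was -0.10 in non-SP cells, with an interval from -0.59 to 0.40, and turned to 0.04 with median centring. In SP cells it was 0.01, with an interval from -0.48 to 0.51. The other probe set of Trim21 had an SD of 0.25 without and 0.20 with antibody in non-SP cells, and of 0.38 and 0.02 in SP cells. Its antibody differences were -0.01 in non-SP and -0.17 in SP cells.

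Over all 7 genes, limma called 0 in any contrast at an adjusted p under 0.05, and it called 0% of all 18194 genes as well. At an unadjusted p under 0.05 the counts were 0 of 7 between fractions without antibody (0.022% of all genes), 1 of 7 with antibody (0.698%), 0 of 7 for the antibody in non-SP cells (3.22%), 2 of 7 in SP cells (4.59%), 1 of 7 for the interaction (0.236%) and 1 of 7 for the antibody averaged over fractions (2.53%). Fcgr2b gave the fraction difference and the interaction, Fcer1g the average, and both gave the difference in SP cells. With cultures as a block the count between treated fractions was 2 of 7, Fcgr2b and Fcgr1, beside 1311 of 18194 genes. For the interaction that block gave 1003 of 18194 genes in place of 43, Fcgr2b among them. Between untreated fractions it gave 305 in place of 4, so the small shares above belong to the fit without a culture term. Groups did not overlap, with antibody lower, for 1 of 7 genes in non-SP cells (6.62% of all genes), 2 of 7 in SP cells (8.04%) and 1 of 7 over cultures (6.95%). For SP lower than non-SP with antibody the count was 1 of 7 (1.78%).

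The median difference of the 7 genes for the antibody was -0.14 in SP cells and -0.11 averaged over fractions, beside -0.12 and -0.11 for all genes. The 95% interval of a typical gene reached 0.46 log2 units to either side between groups, 0.43 averaged over fractions and 0.65 for the interaction. A p above the threshold here does not show that the levels were equal.

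**Figure D4:**
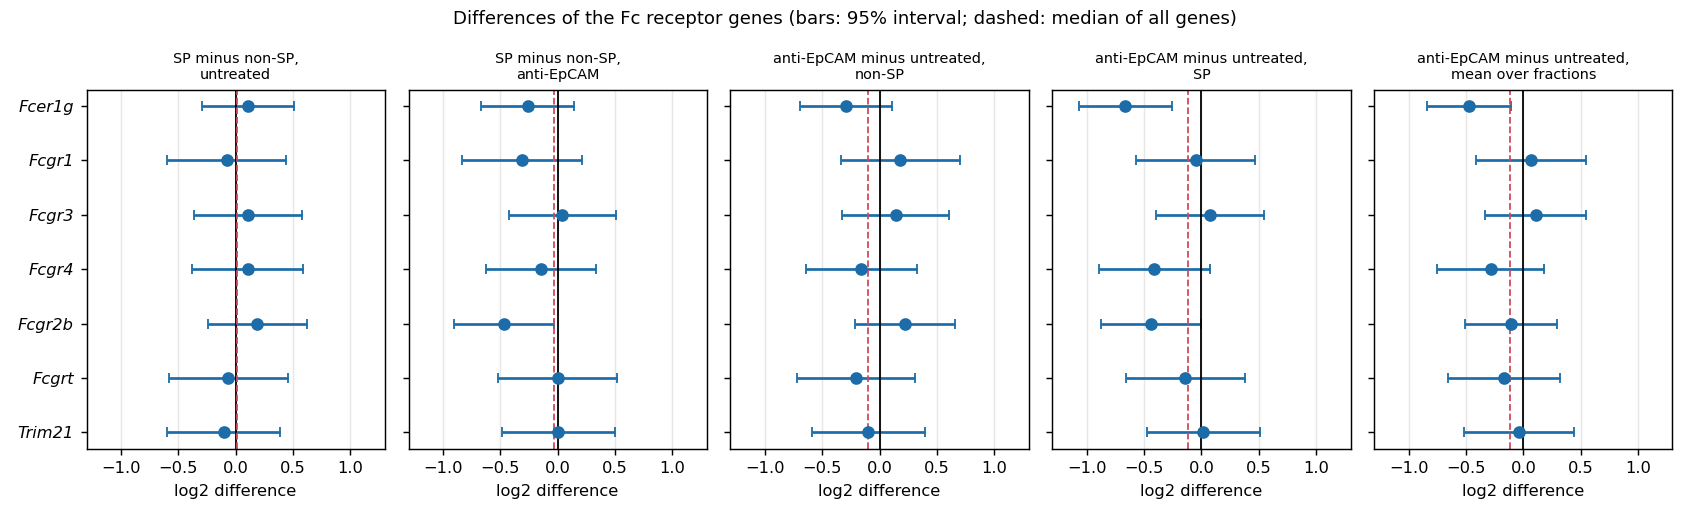
Log2 difference of each of the 7 genes with its 95% interval in 5 contrasts, with 0 as a solid line and the median of all genes dashed. In the fit without a culture term, intervals that leave out 0 are those of Fcer1g in SP cells and averaged over fractions, and those of Fcgr2b between treated fractions and, narrowly, for the antibody in SP cells.

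The genes that act with the receptors were counted by role for the antibody averaged over fractions, where limma called 0 in every list at the adjusted threshold. In that contrast 79.4% of all genes were below 0, with a median of -0.11, and the counts below are to be read against that share. In activating signalling, 17 of 20 listed genes were measured and 12 were below 0, with a median of -0.07. Ncf1, the p47 subunit of the phagocyte oxidase, was lower by 0.81 ± 0.18 with no overlap of cultures and had a limma p of 0.00111 before and 0.991 after adjustment, at a mean of 4.88 within the olfactory range. Syk, the kinase that docks on Fcer1g, had a mean of 6.50 and differed by -0.24 ± 0.16, and the B cell kinase Btk, at a mean of 5.53, by -0.36 ± 0.19. Pik3cd (12.99) and Plcg1 (9.66), a lipid kinase and a phospholipase, had the highest means of that list and differed by 0.05 and -0.03.

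In inhibitory signalling, 8 of 10 genes were below 0 with a median of -0.08. Inpp5d, the phosphatase that docks on Fcgr2b, had a mean of 5.94 and differed by -0.04 ± 0.18, and Ptpn6, another phosphatase of inhibitory receptors, had a mean of 7.42 and differed by -0.08 ± 0.20. Both took values above 0 with median centring. Ptpn11 (10.54) and Inppl1 (10.25), relatives of these that most tissues use, differed by 0.07 and -0.14, the latter turning to 0.03 with median centring.

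Around FcRn, 10 of 12 genes were below 0 with a median of -0.11. B2m, the light chain of FcRn and of MHC class I, was at 12.41 and differed by -0.11 ± 0.24, which turned to 0.06 with median centring, and Lamp1, a lysosomal membrane protein, was at 12.37 and differed by -0.04. Alb, albumin, the other cargo of FcRn, was at 5.07 and differed by -0.44 ± 0.25. All 14 listed partners of Trim21 were above the olfactory range, 12 were below 0 and the median was -0.12, with Fbxw11 (12.69) and Ube2d3 (12.39) the highest. The largest differences by p there were those of the ubiquitin-conjugating enzymes Ube2d2a and Ube2e1, -0.22 and -0.24.

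Other immunoglobulin-binding genes were mostly low, with 2 of 11 above the olfactory range. These were Lgals3, a galectin that binds glycans of IgE (13.87), and Fcgbp, a mucus protein named for binding IgG Fc (8.38). They differed by -0.11 and -0.04 with antibody. Pigr, the carrier of polymeric IgA and IgM, was at 4.73 and differed by -0.57 ± 0.24 (limma p 0.0383, adjusted 0.991), and Fcer2a, the low-affinity IgE receptor, was at 4.14 and differed by -0.40 ± 0.19.

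The ITAM adaptors related to Fcer1g, with the receptors that use them, had 2 of 14 genes above the olfactory range, Cd3e (6.76), a chain of the T cell receptor complex, and Trem2 (6.21), a myeloid receptor. Averaged over fractions, 13 of these 14 were below 0, with a median of -0.14. The single fractions are given for this list because of its values there, so they support nothing further. In non-SP cells 7 of 14 were below 0, with a median of -0.01 beside 70.9% and -0.10 for all genes. In SP cells 13 of 14 were below 0, with a median of -0.27 beside 78.4% and -0.12. For the interaction 13 of 14 were below 0, with a median of -0.27 beside 56.4% and -0.03. At an unadjusted p under 0.05, 0 of the 14 passed in any of these contrasts. Such shares were not particular to this list. For the interaction, granulocyte and mast cell markers had 9 of 10 below 0, with a median of -0.18. B and plasma cell markers had 7 of 8 (-0.22), and T and NK cell markers 7 of 9 (-0.24). Macrophage markers had 7 of 14 (-0.01), partners of FcRn 6 of 12 (0.02) and those of Trim21 6 of 14 (0.05). Tyrobp, another ITAM adaptor of myeloid cells, was at 4.87 and differed by 0.18 ± 0.19 averaged over fractions.

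Cells that carry most Fc receptors in the body would bring their own markers, so these were read in the same arrays. Of 14 monocyte and macrophage markers 6 stood above the olfactory range: Csf1r (9.98), Cd14 (8.94), Cd68, Laptm5, Cd53 and Lyz2. Ptprc (CD45, on all white blood cells), Itgam, Adgre1, Aif1, Mrc1, Marco, Msr1 and Spi1, which encodes PU.1, stood within it, with Ptprc at 3.42 and Spi1 at 6.04. The log2 of the summed macrophage list ran from 11.08 to 11.33 in non-SP untreated, 10.92 to 11.43 in SP untreated, 10.60 to 11.43 in non-SP anti-EpCAM and 10.71 to 11.20 in SP anti-EpCAM arrays, so all 4 groups overlapped. Linear values were summed, so Csf1r and Cd14, the highest markers, weigh most in it and the low ones add little. With antibody Ptprc differed by 0.04, Spi1 by -0.11 and Csf1r by -0.27 ± 0.26, and Marco, a scavenger receptor, by -0.36 ± 0.16 with no overlap of cultures.

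Of the other blood cell markers, 1 of 10 for granulocytes and mast cells, 3 of 8 for B and plasma cells and 3 of 9 for T and NK cells were above the olfactory range. Among the highest were S100a8 (7.90), Sdc1 (11.55), which epithelial cells also make, and Zap70 (8.86). Prf1, perforin, at 5.41, was lower by 0.51 ± 0.17 with antibody (limma p 0.0131, adjusted 0.991). Epcam, the target of the antibody, differed by -0.15 ± 0.18, which turned to 0.02 with median centring.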

How the data were processed

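RNA of 12 samples in 4 groups was hybridised to Affymetrix mouse arrays. The table deposited holds log2 expression per probe set, which the authors made by RMA, per the submitters' processing notes; the sources used here give neither its version nor whether another scaling followed. Of 45101 probe sets, 34958 had 1 symbol in the platform annotation of 2016, 932 several and 9211 none. No filter on level was used.

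Differences were fitted with limma 3.58.1 in R 4.3.3 (lmFit and eBayes without trend, 4 group means, 12 arrays, 8 residual degrees of freedom) and, averaged over fractions, on 6 culture means (4 degrees of freedom). Tests were two-sided, adjusted by Benjamini-Hochberg over 18194 genes at 0.05. Exact permutation tests used scipy 1.17.1 in Python 3.11.15. The members and lists were chosen with earlier results of these data known. Of 147 list genes 137 were measured, and the other 10 were not analysed here. Named are all 7 members and a fixed set of partner and marker genes. Also named are, per list, the 2 highest by mean and the 2 with the lowest p averaged over fractions. For each member above the median level, the 4 genes with the course most like it are named. Markers named by their place against the olfactory range, and Sftpc, Nkx2-1, Sftpb and Sftpd, were added after their values were seen.

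Replicate numbers pair fractions: deviations from group means of SP and non-SP arrays of 1 number correlated at 0.55 to 0.84 in untreated and 0.56 to 0.75 in treated cells, while treatments of 1 number correlated from -0.38 to -0.01. On simulated arrays with correlated cultures and independent genes, 100 genes changed at each fold, the procedure recovered 64, 49, 53, 50, 13 and 46% of genes changed 2-fold, in the order of the contrasts (fractions without and with antibody, antibody in non-SP and SP cells, interaction, average), and 94, 95, 93, 97, 75 and 93% of those changed 4-fold, with 0, 0, 7, 17, 0 and 4 false calls among 18194 genes. With cultures as a block it recovered 86, 83 and 50% of the 2-fold and 98, 97 and 94% of the 4-fold changes for both fraction contrasts and the interaction, with 8, 6 and 2 false calls. The labels call the replicates biological and say no more of their source, so p-values measure only the spread between these samples, which may be technical. The number of arrays limits the precision.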

Additional observations from a re-analysis of the deposited data

Results flagged for a closer look

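Fcgr2b was picked out because its fraction difference took opposite directions: SP was above non-SP in all 3 untreated cultures and below it in all 3 treated ones, an interaction of -0.66 for its lead probe set. The limma test of that difference had an unadjusted p of 0.0383 and an adjusted p of 1.00. No group of 3 arrays was tested for outlying samples.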

How the results depend on the processing

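In all contrasts and alternatives limma called 0 genes at an adjusted p under 0.05, where the unadjusted counts were 4, 127, 585, 835, 43 and 461 of 18194 genes in the order of the contrasts. Of 572 values of the 42 member differences under alternatives, 519 kept their direction and 53 took the other sign. All are values of lead probe sets, and other probe sets were not among the alternatives. Part of the 519 could not turn, because some settings change only the spread and leave the estimate as it was. Such settings are the trend, the blocks, a fit of only the 2 groups compared and one of only genes over the median level. Over all alternatives 18 differences kept their sign throughout. Among these were those of Fcer1g in all contrasts except between untreated fractions and those of Fcgr2b in all except the average. The cause of the turned signs was not tested. With cultures as a replicate block the unadjusted counts were 305, 1311 and 1003 between untreated and treated fractions and for the interaction. No call was made there. Since that block changes only the SE, the Fcgr2b interaction of -0.66 was fixed in advance. Scaling moved the split of genes at an unadjusted p under 0.05: for the antibody in non-SP cells from 94 higher and 491 lower to 560 and 88 with arrays centred on their medians and 416 and 169 with quantile normalization, in SP cells from 20 and 815 to 284 and 174 and to 168 and 233, and on average from 31 and 430 to 257 and 86 and to 207 and 130. Between treated fractions it moved from 54 and 73 to 93 and 53 with centring. Centring turned the antibody difference of Trim21 in non-SP cells to 0.044, of Fcgr1 in SP cells to 0.14, of Fcgrt in SP cells to 0.055, and on average that of Fcgr2b to 0.060, Trim21 to 0.13, Inppl1 to 0.027, Inpp5d to 0.13, Ptpn6 to 0.090, B2m to 0.060, Spi1 to 0.058 and Epcam to 0.018. Quantile normalization turned that of Trim21 in non-SP cells to 0.047, of Fcgr1 in SP cells to 0.14, on average of Fcgr2b to 0.024, Trim21 to 0.11, Inpp5d to 0.14, Ptpn6 to 0.073 and Spi1 to 0.065, the Fcgr3 interaction to 0.054 and the Fcgrt difference between treated fractions to -0.044. Without both arrays of treated culture 2 the Fcgrt difference in SP cells was 0.15. Other probe sets gave levels of 3.95 for Fcgr1, of 5.74, 4.78, 3.68 and 2.98 for Fcgr2b and of 4.89 for Trim21. In that order the 4 of Fcgr2b differed by 0.15, -0.001, 0.11 and -0.12 between treated fractions. For the antibody they differed by -0.14, -0.46, 0.08 and 0.12 in non-SP and by -0.07, -0.47, -0.02 and 0.07 in SP cells. Some of these have the sign opposite to the lead probe set. Leaving out 1 array at a time, differences between untreated fractions ranged from -0.022 to 0.18 for Fcer1g, -0.29 to 0.16 for Fcgr1, -0.041 to 0.35 for Fcgr3, -0.037 to 0.22 for Fcgr4, -0.16 to 0.030 for Fcgrt and -0.34 to 0.12 for Trim21. Between treated fractions they ranged from -0.059 to 0.21 for Fcgr3, -0.29 to 0.080 for Fcgr4, -0.20 to 0.29 for Fcgrt and -0.034 to 0.046 for Trim21. Antibody differences ranged in non-SP cells from -0.0026 to 0.31 for Fcgr1 and -0.29 to 0.065 for Trim21, and in SP cells from -0.29 to 0.16 for Fcgr1, -0.17 to 0.24 for Fcgr3, -0.34 to 0.15 for Fcgrt and -0.21 to 0.25 for Trim21. Interactions ranged from -0.31 to 0.10 for Fcgr3, -0.14 to 0.36 for Fcgrt and -0.11 to 0.35 for Trim21. Leaving out 1 culture at a time, averaged differences ranged from -0.15 to 0.24 for Fcgr1, -0.057 to 0.22 for Fcgr3, -0.33 to 0.051 for Fcgrt, -0.25 to 0.16 for Trim21, -0.14 to 0.10 for Inpp5d, -0.26 to 0.013 for Ptpn6, -0.24 to 0.16 for B2m, -0.067 to 0.16 for Ptprc, -0.43 to 0.047 for Csf1r and -0.30 to 0.10 for Spi1. Signal over background limits Fcer1g, Fcgr1, Fcgr3 and Fcgr4, whose levels lie in the olfactory range.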
